A study of Mus musculus with 92 samples.

Results

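These 9 libraries are the livers of female mice that were given the highest dose of HFPO-DA for the longer of the study's durations, together with their controls. HFPO-DA stands for hexafluoropropylene oxide dimer acid, a short-chain perfluoroalkyl ether acid used in making fluoropolymers. All 9 females were CD-1 mice, an outbred stock, of genotype WT. Each was dosed by oral gavage on every day of 18 months, 5 of them with HFPO-DA at 5 mg/kg and 4 of them at 0 mg/kg, which is the control. The mice were chosen by sex, duration and dose, and they account for 9 of the study's 92 libraries. Another control of this group, replicate 3, was left out because its library held only 403108 counts. No age of the animals is given in the sources used here.

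The study dosed both sexes for 9 or 18 months at 5 mg/kg, at lower doses of 0.5, 0.1 and 0.05 mg/kg, or at 0 mg/kg, and took liver at the end. Sections of formalin-fixed, paraffin-embedded liver were scraped from slides and measured with TempO-Seq. In that assay a pair of short detector probes is ligated on each target transcript, and the ligated pairs are counted by sequencing. A level below is in CPM (counts scaled to a common library size), and each difference is a log2 fold change, 5 mg/kg minus 0 mg/kg, with its standard error (SE).

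PPAR-alpha is a nuclear receptor of hepatocytes that binds fatty acids and many fibrate-like chemicals. With its partner RXR it turns on genes for the uptake, activation and oxidation of fatty acids in peroxisomes, microsomes and mitochondria. In rodents a strong and lasting activation of this receptor enlarges the liver and multiplies peroxisomes, and it is a known route to rodent liver tumours. The gene groups below follow the path of a fatty acid through the hepatocyte, and then take up sex-biased genes, secreted proteins and the markers of other liver cells.

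Total counts ran from 9948220 to 11937743 in the 5 mg/kg libraries and from 11083295 to 17245725 in the controls, with 12397 to 14718 genes detected. Pearson correlations of log2(CPM + 1) were 0.953 to 0.978 between treated libraries, 0.923 to 0.96 between controls, and 0.931 to 0.965 across the groups, so the controls were the more varied group. Hepatocyte genes were abundant in both groups: 11 hepatocyte markers, among them albumin and apolipoprotein A-I, summed to 39882 to 73159 CPM in treated mice and 37341 to 98503 CPM in controls. Control replicates 2 and 4 stood apart by their acute phase transcripts, which summed to 91186 and 216054 CPM against 34487 and 41554 CPM in control replicates 1 and 5. Counts of changed genes are therefore also given without these controls, an alternative that was chosen after seeing the data and leaves 2 controls. The left-out control also carried 19.8 CPM of Y-linked transcripts, against at most 0.892 CPM in the 9 libraries.

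At 5 mg/kg, 79 genes rose and 79 fell of 12370 tested, which is 1.28% of them in all and 0.639% in each direction (edgeR quasi-likelihood test, adjusted p under 0.05). The median change over all tested genes was -0.02. Genes of fatty acid uptake, omega-oxidation, peroxisomal and mitochondrial beta-oxidation and lipid droplets were among the rises. Among the falls were sex-biased enzymes, alpha-1-antitrypsin genes, and clotting and complement factors. For 73 of the 79 risen genes all 5 treated mice lay above all 4 controls, and for 65 of the 79 fallen genes they lay below, arrangements that 3.27% and 2.68% of all tested genes showed. The call held without each of the 9 libraries in turn for 51 genes, 28 of them higher and 23 lower. Without control replicate 4 the test called 66 genes, without control replicate 1 it called 247, and without both control replicates 2 and 4 it called 31.

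**Figure D1:**
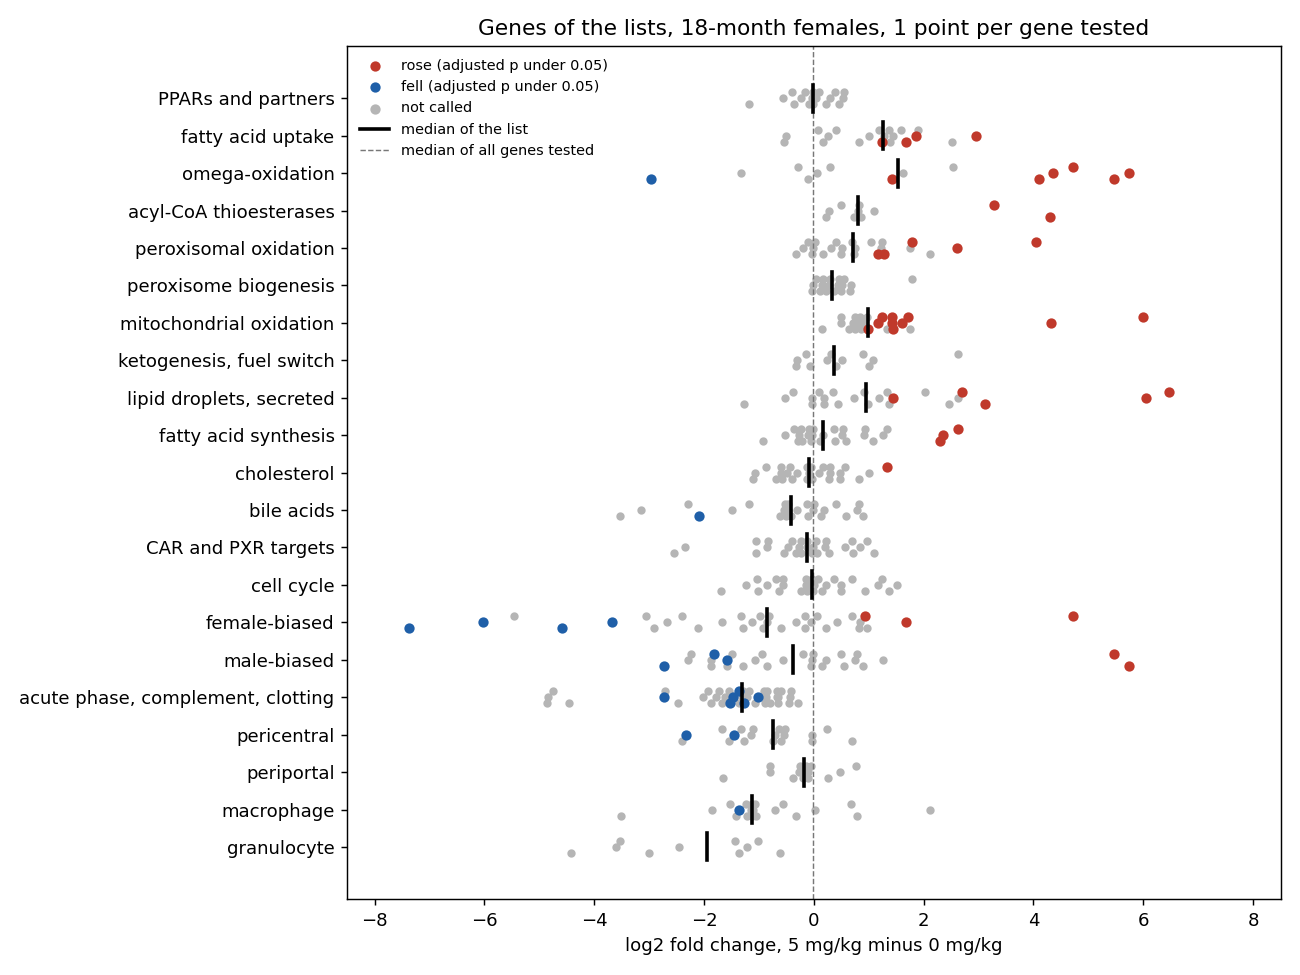
Log2 fold changes of all tested genes of 21 gene lists, 1 point per gene, with rises in red, falls in blue, the median of each list as a black bar and the median of all genes as a dashed line. The lists of fatty acid uptake, omega-oxidation and mitochondrial oxidation have medians of 1.26, 1.53 and 0.98, while the acute phase list has a median of -1.3.

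The receptor itself did not pass the test. Ppara measured 85.6, 133, 155 and 129 CPM in control replicates 1, 2, 4 and 5 and 118, 135, 163, 143 and 209 CPM in treated replicates 1 to 5, the order used for all values by animal below. The groups overlapped, and the change was 0.29 ± 0.29 (SE, adjusted p = 0.821). None of the 18 tested PPARs, partners and cofactors was called, and their median change was -0.01.

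Of 20 fatty acid uptake and binding genes tested, 4 rose, 0 fell and the rest did not pass. The median was 1.26, and 18 had a positive change. Fabp2, a fatty acid binding protein best known from the intestine, was at 507, 411, 213 and 600.4 CPM in controls and at 2101, 1426, 1777, 1278 and 1291 CPM in treated mice, a change of 1.86 ± 0.32 (adjusted p = 0.0042). The lowest treated value was more than the highest control value, and the call held without any 1 library. Slc27a1, a fatty acid transporter and acyl-CoA synthetase, went from 7.35 to 10.1 CPM in controls to 16.3 to 164 CPM in treated mice, a change of 2.96 ± 0.57 (adjusted p = 0.0096, and 0.0511 without control replicate 4). Dbi, the acyl-CoA binding protein, rose by 1.24 ± 0.25 (adjusted p = 0.012, and 0.0621 without control replicate 4). Cd36, the scavenger receptor that takes up long-chain fatty acids, was at 86.8, 92.8, 83.4 and 40.3 CPM in controls and at 271, 285, 348, 123 and 177 CPM in treated mice. Its change of 1.67 ± 0.41 was called with little margin (adjusted p = 0.0452), and the call was lost in 7 of the 9 fits that left out 1 library, with an adjusted p of up to 0.12. Fabp1, the main fatty acid binding protein of liver, did not pass (1.59 ± 0.45, adjusted p = 0.0757), although its treated values of 5696 to 9571 CPM all lay above the control values of 529 to 4974 CPM. Leaving out 1 library gave 1 to 6 rises in this list, with 1 rise without control replicate 4, and leaving out both control replicates 2 and 4 gave 0 with a median of 1.01.

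Microsomal omega-oxidation held several of the largest rises. Of 14 genes tested 6 rose and 1 fell, with a median of 1.53. There were 2 to 5 rises with 1 library left out, and 2 without control replicate 4. The Cyp4a enzymes hydroxylate the far end of medium and long fatty acids and are textbook PPAR-alpha targets in rodents. Cyp4a14 was at 39.1, 20, 5.08 and 23.8 CPM in controls and 541, 641, 941, 334 and 448 CPM in treated mice, a change of 4.72 ± 0.92 (adjusted p = 0.0132, and 0.0536 without control replicate 4). Cyp4a31 was at 51.5, 79.2, 11.7 and 50.6 CPM and at 893, 1223, 1785, 452 and 553 CPM, a change of 4.35 ± 0.81 (adjusted p = 0.00859). Cyp4a10 was at 242, 116, 12.3 and 117 CPM and at 1910.3, 2518, 3363, 987 and 1657 CPM, a change of 4.1 ± 0.93 (adjusted p = 0.0312). In all 3 genes every treated mouse was far above every control, with treated replicate 3 the highest and control replicate 4 the lowest. The Cyp4a10 call was lost in 6 of the 9 fits that left out 1 library, with an adjusted p of up to 0.0943. Probes for these closely related genes may share transcripts, so how the signal divides among Cyp4a10, Cyp4a31 and their relatives is uncertain. Ephx2, the soluble epoxide hydrolase, rose by 1.43 ± 0.3 (adjusted p = 0.0155, and up to 0.067 with 1 library left out).

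Cyp4a12a, a Cyp4a enzyme that in mice is typical of male liver and kidney, was the member of this list with the greatest change. It was at 1, 1.98, 1.14 and 1.73 CPM in controls and at 4.86, 63.2, 187, 33.7 and 99.6 CPM in treated mice, a change of 5.74 ± 0.75 (adjusted p = 6.96e-04). Treated replicate 1 was low for its group but still above all controls, and the call held without any 1 library. Its near copy Cyp4a12b summed to 399 raw counts in treated mice and 8 in controls, a ratio of 53.3 after scaling for depth (95% interval 26.8 to 124, counting error only). Treated replicate 1, at 0.0884 CPM, lay among the controls. The Cyp4a12b call (adjusted p = 0.0365) was lost in 4 of the 9 fits that left out 1 library, with an adjusted p of up to 0.146, and the change turned to -1.59 when the low-total control was kept in. Cyp4f14, which hydroxylates leukotrienes and other fatty acids, was the member that fell: 73.7, 41.7, 62 and 119.9 CPM in controls against 5.65, 16.8, 7.44, 10.3 and 7.59 CPM in treated mice, a change of -2.96 ± 0.52 (adjusted p = 0.00565). Without both control replicates 2 and 4 the list held 1 rise, Cyp4a12a (adjusted p = 0.0286), and 1 fall, Cyp4f14 (adjusted p = 0.0179).

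Acyl-CoA thioesterases, which release free fatty acids from coenzyme A, had 2 rises and 0 falls of 10 tested, with a median of 0.81, and 0 to 3 rises with 1 library left out, 0 without control replicate 4. Acot1, the cytosolic enzyme, was at 64.6, 8.63, 5.08 and 35.3 CPM in controls and 586, 717, 1128, 104 and 281 CPM in treated mice, a change of 4.3 ± 1.03 (adjusted p = 0.044). Acot2, its mitochondrial relative, was at 6.85, 4.47, 2.58 and 5.98 CPM and 34.8, 63.4, 111, 11.6 and 21.3 CPM, a change of 3.28 ± 0.66 (adjusted p = 0.0138). Both separated the groups fully, with treated replicate 4 the lowest treated mouse in each. Acot1 lost its call in 6 of the 9 fits that left out 1 library, with an adjusted p of up to 0.146, and Acot2 without control replicate 4 (adjusted p = 0.0668). The sequences of the pair are similar enough that their probes may share signal.

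Genes of peroxisomal beta-oxidation rose or did not pass the test. Of 24 genes tested 5 rose and 0 fell, with a median of 0.71. Ehhadh, the bifunctional enzyme that hydrates and dehydrogenates the chain, was at 631, 578, 311 and 619 CPM in controls and at 8255, 8959.6, 16556, 4891 and 5289 CPM in treated mice. The lowest treated mouse stood many times above the highest control, and the change was 4.04 ± 0.56 (adjusted p = 6.96e-04). Acaa1a, the thiolase of the last step, was at 427, 467, 233 and 456 CPM and at 1843, 3713, 2386, 1256 and 2877 CPM, a change of 2.61 ± 0.45 (adjusted p = 0.00421). Both calls held without any 1 library. A pair of auxiliary isomerases was called with little margin.

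Ech1 changed by 1.27 ± 0.31 (adjusted p = 0.0381, and up to 0.173 with 1 library left out) and Eci2 by 1.16 ± 0.29 (adjusted p = 0.0483, and up to 0.148). Acaa1b, the second thiolase, separated the groups at 13.4 to 31.9 against 0.909 to 10.3 CPM but did not pass (2.12 ± 0.66, adjusted p = 0.12). Hsd17b4, the other bifunctional enzyme, overlapped between the groups (0.74 ± 0.26, adjusted p = 0.182). The summed level of the 24 genes was 19892 to 42535 CPM in treated mice against 8704 to 13303 CPM in controls. Leaving out 1 library gave 3 to 8 rises, and without both control replicates 2 and 4 the 1 rise was Ehhadh (3.8, adjusted p = 0.0342).

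Of 18 tested genes that build peroxisomes 0 were called, with a median of 0.33, while DESeq2 called 2 rises. Of the 18 changes 16 were positive, against 5965 of all 12370 tested genes. The list summed to 1075 to 1538 CPM in treated mice and 830.3 to 994 CPM in controls, without overlap. Pex11a, which drives peroxisome division, was at 25, 10.9, 15.7 and 15.2 CPM in controls and at 35.9, 53.3, 124, 21.8 and 55.6 CPM in treated mice. Treated replicate 4 lay below control replicate 1, and the change of 1.79 ± 0.55 did not pass (adjusted p = 0.118).

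Mitochondrial beta-oxidation was the list with the most rises, 10 of 24 tested with 0 falls, and every change in it was positive, with a median of 0.98. Cpt1b, the muscle form of the carnitine palmitoyltransferase that admits long-chain fatty acids to mitochondria, was at 2.19, 4.37, 3.94 and 2.99 CPM in controls and at 33.6, 157, 116, 4.43 and 23.2 CPM in treated mice. Treated replicate 4 was barely above the highest control, while the other treated mice were far above it, and the change was 4.32 ± 0.83 (adjusted p = 0.0117). Cpt1a, the liver form, changed by 0.9 ± 0.35 and was not called (adjusted p = 0.251), with 4.7 to 7.84 CPM in controls and 7.24 to 18.7 CPM in treated mice. Ucp3, a mitochondrial carrier best known in muscle, had 166 raw counts in treated mice and 2 in controls, a ratio of 88.7 after scaling for depth (95% interval 24.2 to 739, counting error only). It was called (adjusted p = 0.0145, and 0.0547 without control replicate 2).

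The enzymes of the oxidation spiral rose by smaller amounts and with less spread. Acadm, the medium-chain acyl-CoA dehydrogenase, was at 924, 539, 444 and 650.5 CPM in controls and 2191, 1754, 1968, 1251 and 1373 CPM in treated mice, a change of 1.42 ± 0.26 (adjusted p = 0.00579). Decr1, the dienoyl-CoA reductase for unsaturated chains, was at 407, 400.3, 220.0 and 414 CPM and at 1163, 1131, 1201, 736 and 699.8 CPM, a change of 1.45 ± 0.25 (adjusted p = 0.00421). Eci1, the enoyl-CoA isomerase, changed by 1.72 ± 0.3 (adjusted p = 0.00421) and Acadl, the long-chain dehydrogenase, by 1.17 ± 0.22 (adjusted p = 0.0058). These 4 genes separated the groups and kept their calls without any 1 library. Hadhb, the thiolase subunit of the trifunctional protein, changed by 1.25 ± 0.25 (adjusted p = 0.00989, and 0.0554 without control replicate 4). Its partner subunit Hadha had overlapping groups and did not pass (0.84 ± 0.23, adjusted p = 0.072). Leaving out 1 library gave 6 to 14 rises in the list, with 6 without control replicate 4. Without both control replicates 2 and 4 there were 0 calls, while the median stayed at 0.9.

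**Figure D2:**
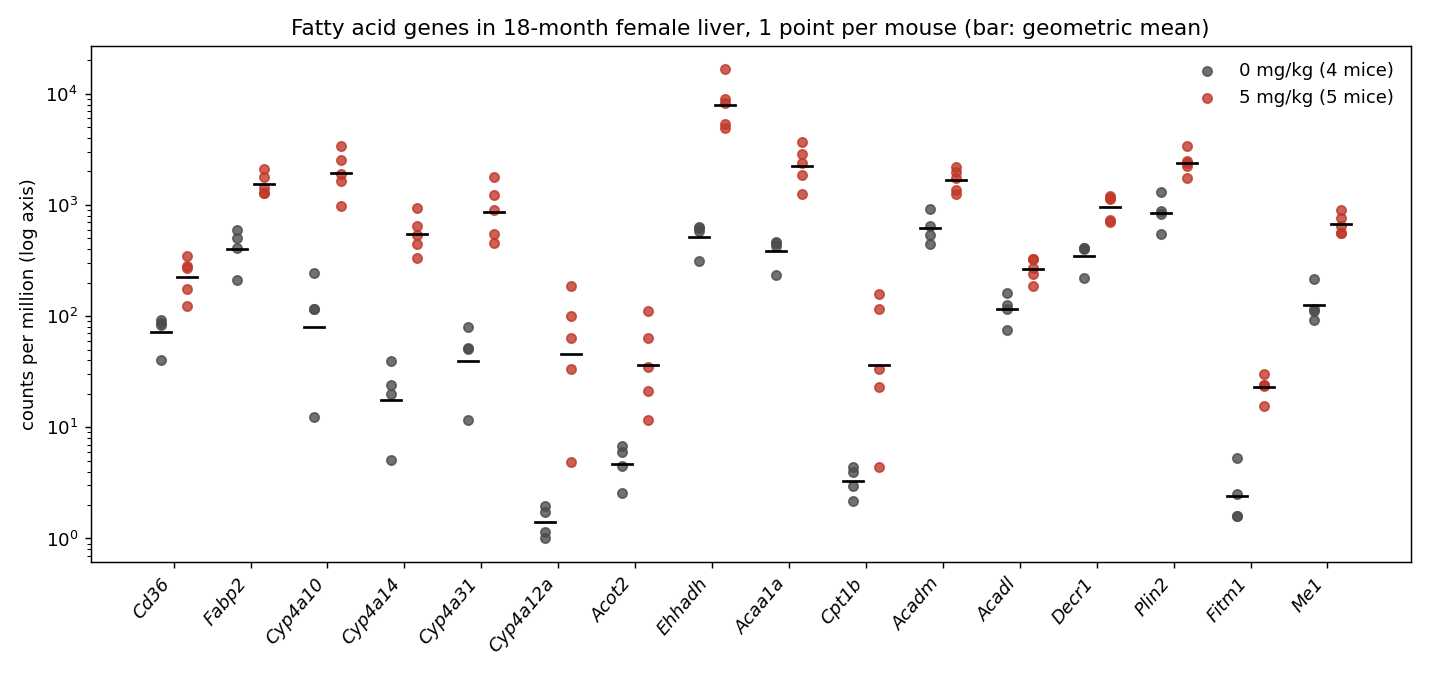
CPM on a log axis of 16 genes of fatty acid uptake, oxidation, storage and synthesis in the 4 control and 5 treated mice, 1 point per mouse, with the geometric mean as a bar. Treated points lie above all control points for each gene shown, narrowly so for Cpt1b, where treated replicate 4 was at 4.43 CPM and the highest control at 4.37 CPM.

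Ketogenesis and the switch of fuels gave 0 calls of 12 tested, with a median of 0.36. Pdk4, the kinase that shuts off pyruvate oxidation, was at 0.886 to 3.77 CPM in controls and 2.7 to 29.6 CPM in treated mice (2.63 ± 0.99, adjusted p = 0.23).

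Lipid droplet and secreted PPAR-alpha target genes had 5 rises and 0 falls of 24, with a median of 0.95. With 1 library left out 2 to 5 rose, with 2 without control replicate 2, and without both control replicates 2 and 4 there was 1 rise. Plin2, the main droplet coat protein of hepatocytes, was at 1301, 889.6, 552 and 833 CPM in controls and 2362, 2231, 3369.7, 1761 and 2465 CPM in treated mice, a change of 1.45 ± 0.27 (adjusted p = 0.0061). Fitm1, which helps to form droplets at the endoplasmic reticulum, was at 1.6, 5.26, 1.59 and 2.52 CPM and at 23.9, 24.2, 30.3, 15.5 and 23.7 CPM, a change of 3.11 ± 0.51 (adjusted p = 0.00339). Both kept their calls without any 1 library. Retsat, a retinol saturase, was at 83.7 to 232 CPM in controls and 513 to 1489 CPM in treated mice (2.7 ± 0.56, adjusted p = 0.0155, and up to 0.0747 with 1 library left out).

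The droplet fusion proteins Cidea and Cidec, abundant in fat cells, were close to absent in control liver. Cidec had 7 raw counts in the controls and 516 in treated mice, a ratio of 78.8 after scaling (95% interval 38 to 197, counting error only), with treated mice at 11.3, 8.58, 17.3, 1.44 and 8.87 CPM. Cidea had 1 and 134 raw counts, a ratio of 143 with an interval of 25.3 to 5698. The Cidec call (adjusted p = 0.0157) was lost in 3 of the 9 fits that left out 1 library, up to 0.0594, and the Cidea call (adjusted p = 0.026) in 6, up to 0.119. Markers of fat cells were measured beside these genes because fat cells express both. Of the fat cell markers, Lep was at 0 in all 9 libraries and Adipoq at a mean of 0.0155 CPM in treated mice and 0 in controls. Fat cell and pancreas markers together summed to 1.54 to 9.35 CPM in treated mice and 2.05 to 6.75 CPM in controls.

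Among the secreted factors, Fgf21, the fasting hormone of the liver, was at 2.01, 2.68, 0.606 and 2.28 CPM in controls and 3.45, 6.03, 5.13, 29.3 and 8.38 CPM in treated mice. All treated mice were above the controls, with replicate 4 the highest, and the change did not pass (2.46 ± 0.72, adjusted p = 0.0905). Angptl4, a lipoprotein lipase inhibitor, was at 85.9, 69.9, 69.4, 1.25 and 0.69 CPM in treated mice and 26.3, 30.9, 12.5 and 0.708 CPM in controls. Its low values in treated replicates 4 and 5 and in control replicate 5 made the groups overlap (1.37 ± 0.99, adjusted p = 0.683). Vnn1, the pantetheinase, was at 3.47 to 13.7 CPM in treated mice against 0 to 4.86 CPM in controls (adjusted p = 0.349), and Fabp4 at 27.3 to 427 CPM against 14.4 to 57.8 CPM (adjusted p = 0.147).

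PPAR-alpha binds with RXR to a direct repeat of the letters AGGTCA with 1 base between the repeats. For 58 of the 79 risen genes and 9617 of all tested genes, RefSeq promoters (build GRCm38.p6) were searched over the 250 bases before the start, on both strands. The short unit AGGTCA was found in 6 risen genes, 10.3%, against 13.5% of all promoters searched and 13.8% of those of fallen genes. The whole repeat AGGTCANAGGTCA was found in 0 risen genes and in 4 promoters of all, 0.0416%. The windows of 4 of the fatty acid genes that hold the short unit are printed with the unit in capitals, as they read 5′ to 3′ on the strand of the gene, so that TGACCT marks a unit on the opposite strand. Such a match is a description of the letters and not a binding site, and the repeats that regulate these genes can lie outside the window.
Acadm (chr3:153944875-153944893, minus strand): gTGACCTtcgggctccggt
Cd36 (chr5:17836107-17836136, minus strand): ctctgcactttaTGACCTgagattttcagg
Plin2 (chr4:86670260-86670289, minus strand): tttcaggaccccTGACCTaagtcagacagc
Ucp3 (chr7:100472830-100472859, plus strand): ttaaagagccccAGGTCAcggaagctaaac

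Fatty acid synthesis was mixed, with 3 rises and 0 falls of 27 tested and a median of 0.17. Me1, the cytosolic malic enzyme that supplies NADPH, was at 216, 111, 91.9 and 115 CPM in controls and at 897, 558, 758, 564 and 644 CPM in treated mice, a change of 2.36 ± 0.38 (adjusted p = 0.00339). Scd2, a stearoyl-CoA desaturase typical of brain and of newborn liver, was at 5.97, 13.9, 14.3 and 12.7 CPM and at 101, 83.9, 94.8, 31.1 and 48.2 CPM, a change of 2.62 ± 0.47 (adjusted p = 0.00564). Both changes were present in every treated mouse, and the calls held without any 1 library. Scd1, the desaturase of adult liver, changed by 2.3 ± 0.52 (adjusted p = 0.0257), a call lost in 5 of the 9 fits that left out 1 library, with an adjusted p of up to 0.0851. In cholesterol metabolism Abcg8, which passes sterols into bile, was the only call of 27, at 25.9 to 37.1 CPM in controls and 46.9 to 99.2 CPM in treated mice (1.34 ± 0.29, adjusted p = 0.0155, and 0.052 without treated replicate 3).

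Several of the largest rises lay outside the oxidation lists. Sptlc3, a subunit of the serine palmitoyltransferase that begins sphingolipid synthesis, had 6 raw counts in the controls and 1917 in treated mice, a ratio of 341 after scaling (95% interval 157 to 932, counting error only). Its treated mice were at 33.5, 20.5, 91, 18 and 17.8 CPM, and no control exceeded 0.157 CPM. Mogat1, which makes diacylglycerol from monoacylglycerol, had 2 and 670 raw counts, a ratio of 358 with an interval of 98.7 to 2962. Gabrg1, a subunit of the GABA-A receptor, had 2 and 454 raw counts, a ratio of 243 with an interval of 66.8 to 2009. The calls of these 3 genes, at adjusted p = 0.00558, 0.00339 and 0.00548, held without any 1 library.

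Aqp3, a channel for water and glycerol, was at 0, 0.992, 0.227 and 0.157 CPM in controls and 12, 31.1, 47.8, 0.578 and 9.27 CPM in treated mice. Treated replicate 4 lay within the control range (5.96 ± 1.24, adjusted p = 0.0155, and up to 0.074 with 1 library left out). Cox6b2, a subunit of cytochrome c oxidase typical of testis, was at 0.0758 to 1.18 CPM in controls and 2.79 to 35.3 CPM in treated mice (adjusted p = 0.0351, lost in 7 of the 9 fits that left out 1 library, up to 0.124). Krt20, an intestinal keratin, rested mainly on treated replicate 1 at 31.3 CPM, with treated replicate 4 at 0.0963 CPM beside 0 to 0.0992 CPM in controls (adjusted p = 0.0211, and up to 0.0954). Krt23, a keratin of bile duct cells, was at 1.48, 1.19, 0.455 and 0.629 CPM in controls and at 55.5, 48.4, 37.7, 17.4 and 34.7 CPM in treated mice, a change of 5.35 ± 0.93 (adjusted p = 0.00551). All treated mice were far above all controls, and the call held without any 1 library. Of the other 9 bile duct markers tested none was called, and the 14 with a probe, Krt23 included, summed to 1034 to 1322 CPM in treated mice and 834 to 2691 CPM in controls, with Epcam at a mean of 0 in both groups. The smallest adjusted p of all, 4.08e-04, belonged to Casc4, a gene singled out after its values were seen, which rose by 3.23 ± 0.41.

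Genes that differ between the sexes in normal mouse liver changed in both directions. The pattern of growth hormone release sets these differences, and female livers normally express a group of sulfotransferases and cytochrome genes at high level. Of 33 female-biased genes tested 4 fell and 3 rose, with a median of -0.86. In the fits that left out 1 library 2 to 4 fell and 0 to 3 rose, with 0 rises without control replicate 4. Cyp3a44, a female-specific cytochrome, was at 216, 29.3, 39.3 and 82.6 CPM in controls and at 7.95, 10.4, 6.73, 8.76 and 1.97 CPM in treated mice. The groups did not overlap, and the change was -3.68 ± 0.73 (adjusted p = 0.0138). This call held without any 1 library and without both control replicates 2 and 4. The probes of Cyp3a44 may share transcripts with Cyp3a41a and Cyp3a41b, whose treated values also all lay below the controls but did not pass (-2.4 at adjusted p = 0.0666 and -1.67 at adjusted p = 0.111).

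Sult3a1, a female-specific sulfotransferase, was at 790.3, 31.9, 149.8 and 199 CPM in controls and at 38.2, 3.94, 10.4, 5.1 and 3.06 CPM in treated mice. Treated replicate 1 overlapped control replicate 2, and the change of -4.59 ± 1 (adjusted p = 0.0257) lost its call in 5 of the 9 fits that left out 1 library, up to 0.086. Cyp2c69, at 0.893 to 116 CPM in controls and 0 to 1.94 CPM in treated mice, passed with little margin (adjusted p = 0.047) and lost its call in 8 of those 9 fits, up to 0.129. The 3 rises in the list were Cyp4a14 and Cd36, both also fatty acid genes and described above, and Rtn4, a reticulon of the endoplasmic reticulum (0.93 ± 0.23, adjusted p = 0.047, and up to 0.153 with 1 library left out).

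Of 28 male-biased genes tested 2 rose and 3 fell, with a median of -0.38. With 1 library left out 1 to 2 rose and 0 to 3 fell, with 0 falls without treated replicate 3 or 5. The rises were Cyp4a12a and Cyp4a12b, which are also members of the omega-oxidation list. The falls were C9, a complement factor described below, Lifr, the receptor of leukaemia inhibitory factor, and Serpina1e, an alpha-1-antitrypsin. In the 18-month controls of this study these genes overlapped between the sexes, in CPM scaled over all libraries. Lifr was at 121 to 842 CPM in females and 185 to 460 CPM in males. Serpina1e was at 5804 to 8226 and 5569 to 11586 CPM, and C9 at 254 to 4127 and 861 to 3684 CPM. Lifr was at 737, 157, 103 and 361 CPM in controls and 66.9 to 117 CPM in treated mice, which overlap, and its call (-1.81 ± 0.4, adjusted p = 0.0211) was lost in 4 of the 9 fits that left out 1 library, up to 0.0894. The 32 male-biased genes with a probe summed to 3813 to 5571 CPM in treated mice and 10772 to 13037 CPM in controls, and the 34 female-biased genes to 4181 to 12748 and 6728 to 26361 CPM. The gap between the male-biased sums lay largely in Serpina1e and C9, which averaged 6106 and 1506 CPM in controls and 2028 and 227 CPM in treated mice. Without these, a choice made after the sums were seen, the remaining 30 genes summed to 1565 to 3491 CPM in treated mice and 2916 to 5469 CPM in controls. These ranges overlap through treated replicate 5 alone, which lay above control replicates 2 and 4 (3210.1 and 2916 CPM). The female-biased sums overlap as well.

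**Figure D3:**
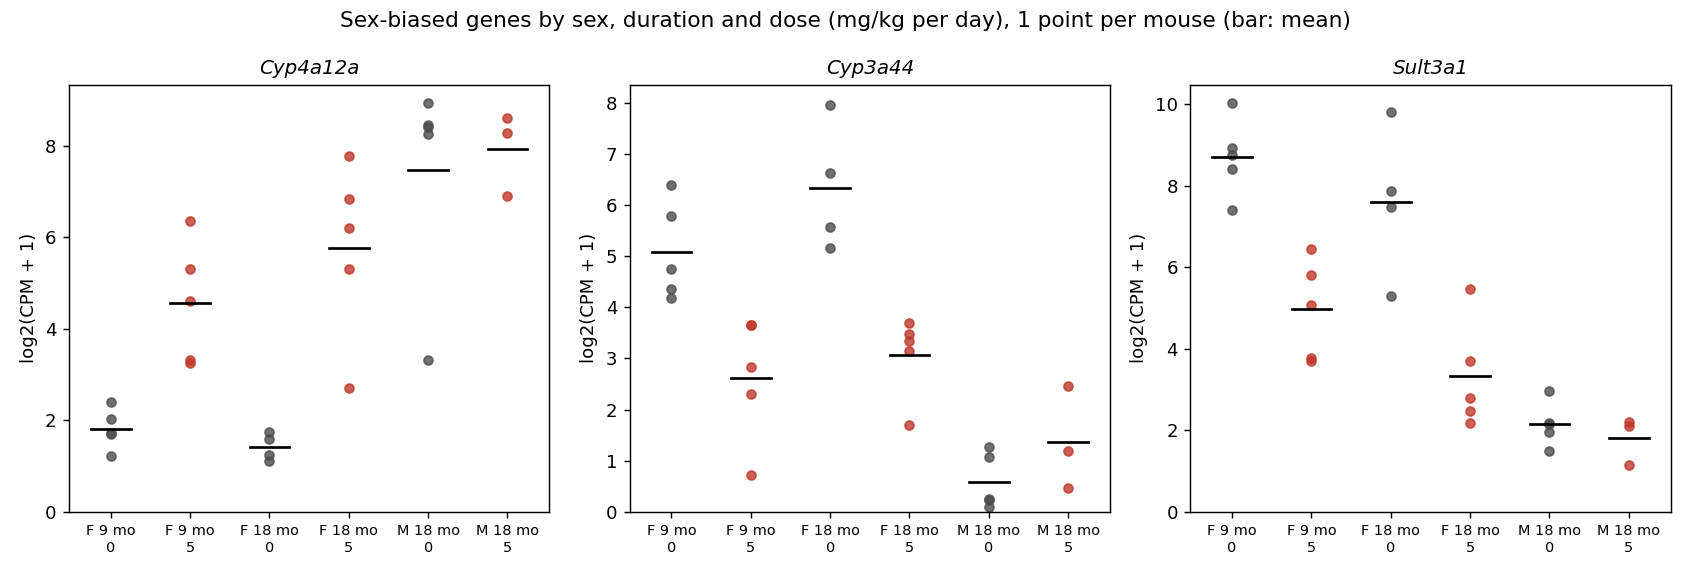
Log2(CPM + 1) of Cyp4a12a, Cyp3a44 and Sult3a1 in females after 9 months, females after 18 months and males after 18 months, each at 0 and 5 mg/kg, 1 point per mouse and the mean as a bar. Cyp3a44 in treated 18-month females (mean 8.25 CPM) sits below control females (106 CPM) and above control males (0.587 CPM), and Cyp4a12a in treated females (mean 90 CPM) sits between control females (1.72 CPM) and control males (298 CPM).

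Other large falls took in transport and metabolic genes. Apoa4, an apolipoprotein, was at 667, 739.7, 1156 and 439 CPM in controls and at 55.4, 34.4, 30.4, 47.5 and 106 CPM in treated mice, a change of -3.78 ± 0.7 (adjusted p = 0.00848). Urad, an enzyme of urate breakdown, was at 14.5, 5.86, 13.9 and 9.2 CPM and at 0.265, 0.232, 1.21, 2.31 and 1.08 CPM, a change of -3.43 ± 0.55 (adjusted p = 0.00298). Il13ra2, a decoy receptor of interleukin 13, changed by -3.48 ± 0.63 (adjusted p = 0.00536), from 3.72 to 11.2 CPM in controls to 0.155 to 1.68 CPM in treated mice. These 3 genes separated the groups and kept their calls without any 1 library. Slc22a7, an organic anion transporter, changed by -2.98 ± 0.62 (adjusted p = 0.0155, and up to 0.0612 with 1 library left out), and Slc3a1, a subunit of a cystine transporter, by -2.56 ± 0.62 (adjusted p = 0.0404, and up to 0.201). Noct, a rhythmic gene that encodes nocturnin, was at 57.1 to 79.5 CPM in controls and at 6.36, 4.17, 7.64, 3.37 and 40.7 CPM in treated mice, and its call (adjusted p = 0.044) was lost in 7 of the 9 fits that left out 1 library, up to 0.126. The list of 17 circadian genes had 0 calls.

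Lrtm1, whose role in liver is not stated in the sources used here, had 855 raw counts in the controls and 2 in treated mice, a level 400.0 times lower after scaling (95% interval 110.4 to 3308, counting error only). Control replicate 2 had only 0.198 CPM of it, against 9.87, 26.8 and 26.1 CPM in the other controls, and the call (adjusted p = 0.00806) held without any 1 library. Sult5a1, a sulfotransferase, had 156 raw counts in the controls and 3 in treated mice, a ratio of 48.7 (interval 16.3 to 239). The controls ranged from 0.0992 to 7.21 CPM and overlapped the treated mice at 0 to 0.201 CPM. Fam47e was at 1.19 to 4.77 CPM in controls and 0 to 0.707 CPM in treated mice (-3.24 ± 0.68, adjusted p = 0.0145, and 0.0605 without control replicate 4).

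Genes of the zone around the central vein, where hepatocytes make glutamine under Wnt signals, had 2 falls and 0 rises of 19 tested, with a median of -0.75. Leaving out 1 library gave 1 to 6 falls, with 6 without control replicate 1. Slc1a2, the glutamate transporter of those cells, was at 229, 321, 376 and 451 CPM in controls and at 77.3, 67.8, 56, 82.7 and 61.6 CPM in treated mice, a change of -2.32 ± 0.35 (adjusted p = 0.00184). The call held without any 1 library and without both control replicates 2 and 4. Nkd1, a Wnt target that restrains the pathway, changed by -1.45 ± 0.34 (adjusted p = 0.0294, lost in 6 of the 9 fits that left out 1 library, up to 0.171). Rspo3, the Wnt amplifier made by central vein endothelium, was at 11 to 20.8 CPM in controls and 4.52 to 8.86 CPM in treated mice (-1.26 ± 0.29, adjusted p = 0.028, lost in 6 of those fits, up to 0.119). Glul, the glutamine synthetase of that zone, was not called (-0.75, adjusted p = 0.326). The 15 periportal genes tested gave 0 calls and a median of -0.18.

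Of 40 acute phase, complement and clotting genes tested 6 fell, 0 rose and the rest did not pass. No change was positive, and the median was -1.3, or -0.51 without both control replicates 2 and 4. F7, coagulation factor VII, was at 130.2, 133, 132 and 134 CPM in controls and at 57.8, 57.9, 55.9, 57.1 and 43.4 CPM in treated mice, a change of -1.28 ± 0.23 (adjusted p = 0.00536). Serpina1a, an alpha-1-antitrypsin, was at 393, 282, 253 and 223 CPM and at 73.5, 60.3, 90.2, 181 and 111 CPM, a change of -1.48 ± 0.26 (adjusted p = 0.00425). Serpina1b, its relative from the hepatocyte marker list, was at 7232, 6187, 7716 and 6345 CPM and at 2367, 2030.2, 2446, 3647 and 2725 CPM, a change of -1.38 ± 0.27 (adjusted p = 0.00824). All treated mice were below all controls in these 3 genes, and the calls held without any 1 library. Serpina1e fell by 1.59 ± 0.35 on the log2 scale (adjusted p = 0.0192, and up to 0.0675 with 1 library left out), and as Serpina1a to Serpina1e are near copies their probes may share transcripts.

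The remaining falls of the list depended more on single libraries. Crp, C-reactive protein, was at 2070.5, 1911, 3013 and 2151 CPM in controls and at 829, 832, 898, 919 and 943 CPM in treated mice (-1.37 ± 0.31, adjusted p = 0.0212, lost in 4 of the 9 fits that left out 1 library, up to 0.11). C4b, complement 4, fell by 1.53 ± 0.35 on the log2 scale (adjusted p = 0.026, and up to 0.191), and Mbl2, mannose-binding lectin, by 1.01 ± 0.24 (adjusted p = 0.0332, and up to 0.104). C9, of the complement attack complex, was at 223, 3458, 1180.4 and 1164 CPM in controls and at 274, 214, 212, 287 and 149 CPM in treated mice. Control replicate 1 was as low as the treated mice, and the call (-2.73 ± 0.63, adjusted p = 0.0332) was lost in 7 of those 9 fits, up to 0.156. Saa1, serum amyloid A, was at 193, 1732, 35429 and 1129 CPM in controls and at 296, 294, 314, 486 and 259 CPM in treated mice, and the change of -4.87 ± 1.61 was not called (adjusted p = 0.165). The list had 2 to 7 falls with 1 library left out, with 2 without treated replicate 1, 2 or 3, and without both control replicates 2 and 4, the controls with the most acute phase transcripts, there was 1 fall, Serpina1a (adjusted p = 0.0228).

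**Figure D4:**
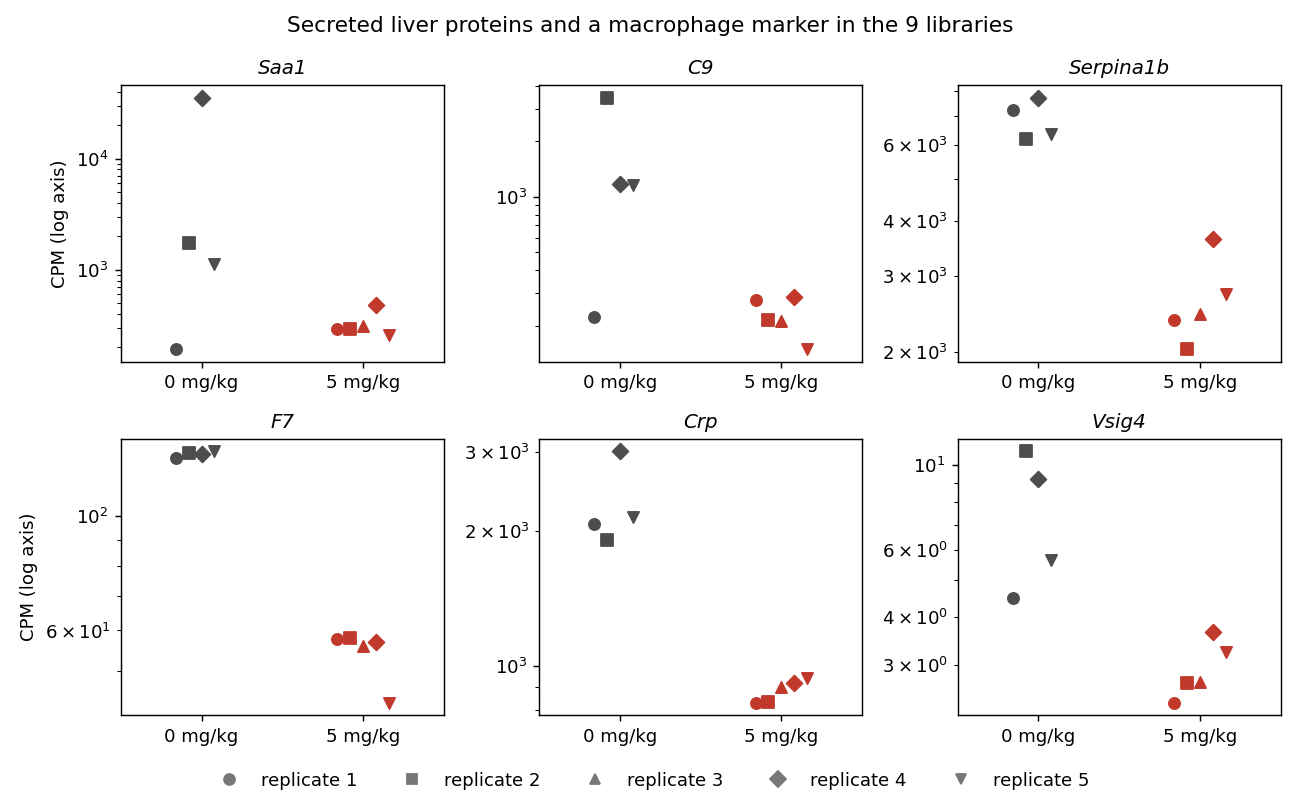
CPM on a log axis of Saa1, C9, Serpina1b, F7, Crp and Vsig4 in the 4 control (grey) and 5 treated (red) mice, with a symbol for each replicate. Saa1 spans 193 to 35429 CPM among the controls, while F7 spans 130.2 to 134 CPM there and 43.4 to 57.9 CPM in treated mice.

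Markers of other liver cells were read beside these lists, since in bulk tissue fewer cells of a type and less RNA per cell cannot be told apart. Of 20 macrophage markers tested 1 fell and 0 rose, with a median of -1.12. The falls numbered 0 to 7 with 1 library left out, with 7 without control replicate 1. Vsig4, the complement receptor of Kupffer cells, was at 4.49, 10.9, 9.24 and 5.66 CPM in controls and at 2.39, 2.7, 2.71, 3.66 and 3.25 CPM in treated mice (-1.36 ± 0.32, adjusted p = 0.0299). All treated mice were below all controls, but the call was lost in 5 of the 9 fits that left out 1 library, up to 0.123. The macrophage list summed to 560.2 to 1456 CPM in treated mice and 436 to 2610.3 CPM in controls, with the lowest sum in control replicate 1 and the highest in control replicate 2. Without both control replicates 2 and 4 it had 0 calls and a median of -0.17.

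The 10 granulocyte markers tested gave 0 calls and a median of -1.94, and the list summed to 15.7 to 44.2 CPM in treated mice and 31.6 to 215 CPM in controls, with the most in control replicate 2. No macrophage or granulocyte gene with a probe was at 0 in all 9 libraries. Lymphocyte markers gave 0 calls of 21, with Trac and Il7r at 0 throughout, and summed to 144 to 984 and 50.2 to 839 CPM. Stellate and matrix markers gave 0 calls of 22, at 705 to 868 and 696 to 1536 CPM, and endothelial markers 1 fall of 15, Rspo3, at 627 to 774 and 686 to 1415 CPM. Control replicate 2, which had the most macrophage and granulocyte transcripts, also had the second highest sum of acute phase transcripts, and the part of these cells in the acute phase result was not tested.

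Other liver programmes gave few or no calls. Of 28 target genes of the xenobiotic receptors CAR and PXR 0 were called, with a median of -0.12. Cyp2b10, the standard CAR target, was at 260.3, 408, 131 and 227 CPM in controls and 248, 77.7, 149, 71.5 and 177 CPM in treated mice (-0.83 ± 0.64, adjusted p = 0.715). Cyp3a11, the standard PXR target, was at 64, 2951, 1065 and 569 CPM and at 797 to 1418 CPM, so that its controls varied far more than its treated mice (adjusted p = 0.981). Its change of -0.12 turned to 0.92 without control replicate 2 and to 1.74 without both control replicates 2 and 4. Of 25 bile acid genes 1 fell, the uptake transporter Slco1a4 (-2.09 ± 0.47, adjusted p = 0.0248, and up to 0.086 with 1 library left out). Cyp7a1, the rate-limiting enzyme of bile acid synthesis, and Cyp8b1, which sets the cholic acid share, were not called (adjusted p = 0.633 and 0.691). Of 6 aryl hydrocarbon receptor targets 1 fell, the glucuronosyltransferase Ugt1a6a (-1.31 ± 0.32, adjusted p = 0.0413, and up to 0.158), while Cyp1a2 was not called (adjusted p = 0.657). Both lists still summed to less in every treated mouse. The bile acid genes summed to 5415 to 6896 CPM against 6988 to 8754 CPM in controls, and the aryl hydrocarbon receptor targets to 167 to 359 against 410.1 to 592 CPM. Their median changes were -0.41 and -0.48, or -0.36 and -0.11 without both control replicates 2 and 4.

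Growth and damage lists were without calls but for Scd2. Of 29 cell cycle genes 0 were called, with a median of -0.03. Mki67, a marker of dividing cells, was at 1.06, 4.17, 0.455 and 1.18 CPM in controls and 1.68, 7.73, 0.804, 0.674 and 0 CPM in treated mice (adjusted p = 0.97), and its change of 0.37 turned to -1.09 without treated replicate 2. Ccnd1, cyclin D1, was at 21.6 to 51.2 CPM in controls and 15.9 to 35.9 CPM in treated mice (-0.63 ± 0.36, adjusted p = 0.56). The lists of p53 targets, endoplasmic reticulum stress, oxidative stress, amino acid metabolism and glucose metabolism held 20, 22, 24, 36 and 28 tested genes, and 0 of them were called. The endoplasmic reticulum stress list still summed to less in every treated mouse, 5261 to 8293 CPM against 9262 to 16838 CPM in controls. Its median change was -0.25, or 0.02 without both control replicates 2 and 4. The sums of the other lists in this group overlapped between treated and control mice. Afp, the fetal albumin relative used as a tumour marker, was at 0.606 to 2.04 CPM in controls and 1.01 to 2.31 CPM in treated mice (adjusted p = 0.978). Among 11 fetal and tumour genes tested Scd2 was the 1 rise.

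The lower doses place these changes on a dose scale. The groups at 0.05, 0.1 and 0.5 mg/kg held 4, 5 and 5 mice. Their comparisons with the controls share the same 4 control libraries as above, and those with 5 mg/kg share the treated ones. At 0.5 mg/kg, edgeR called 0 of 12370 genes against the controls, with 376 at an unadjusted p under 0.05 and a smallest adjusted p of 0.132, while DESeq2 called 4. Between 5 and 0.5 mg/kg, 45 genes were higher at 5 mg/kg and 44 lower, 0.719% of those tested, and 15 of these 89 calls held without each of the 10 libraries in turn. The count was 18 without replicate 3 of the 5 mg/kg group.

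Levels over the doses took different courses. Mean levels of Cyp4a14 were 22, 70.2, 120.5, 236 and 581 CPM from 0 to 5 mg/kg, and the step from 0.5 to 5 mg/kg was not called (1.3 ± 0.72, adjusted p = 0.477). Ehhadh stood at 535, 971, 1184, 1529.7 and 8790.1 CPM, and its upper step was called (2.52 ± 0.48, adjusted p = 0.015, and 0.0581 without replicate 3 of the 5 mg/kg group). In both genes the means at all lower doses lay above the control mean, while single animals overlapped the controls in each of those groups, Ehhadh at 0.1 mg/kg excepted, where the lowest animal (658 CPM) lay just above the highest control (631 CPM).

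In another set the mean levels differed little from the controls until 5 mg/kg. Cyp4a12a stood at 1.46, 1.65, 1.46, 2.13 and 77.7 CPM, with an upper step of 5.2 ± 0.66 (adjusted p = 6.82e-04). Me1 stood at 134, 103, 180.3, 185 and 684 CPM (1.88 ± 0.34, adjusted p = 0.0103), and Urad at 10.9, 9.12, 9.31, 8.37 and 1.02 CPM (-3.05 ± 0.53, adjusted p = 0.00656). Serpina1b stood at 6870.1, 6149, 6237, 7328 and 2643 CPM (-1.47 ± 0.26, adjusted p = 0.00656). F7, Serpina1a and Cyp4f14 were also lower at 5 than at 0.5 mg/kg, by -1.3, -1.54 and -2.95 (adjusted p = 0.0061, 0.00548 and 0.00805). These 7 steps held without each of the 10 libraries. Among these libraries, replicate 5 at 0.5 mg/kg was rich in acute phase transcripts, with 57289 CPM of Saa1 against 85.6 to 661 CPM in the others of its group. For F7 and Cyp4f14 some animals lay below every control at each lower dose. For F7 these were replicates 1 to 3 at 0.05 mg/kg (99.6, 53.9 and 68.3 CPM). At 0.1 mg/kg they were replicates 1, 2, 3 and 5 (99.7, 104, 80.2 and 97.8 CPM), and at 0.5 mg/kg replicates 2 and 4 (99.2 and 93.8 CPM). For Cyp4f14 they were replicates 2 and 3 at 0.05 mg/kg (23.1 and 24.4 CPM). At 0.1 mg/kg they were replicates 1, 2, 3 and 5 (40.1, 36.5, 41.4 and 38.2 CPM), and at 0.5 mg/kg replicate 2 (28.2 CPM). The other mice at these doses lay within or above the control range.

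Among the genes with the largest steps between these doses Aqp7 and Efcab3 had very low counts. Aqp7, a glycerol channel, had 126 raw counts in the 5 mg/kg mice and 0 in the controls, at least 44.9-fold higher against a floor of 3 counts over the control group. It was called against 0.5 mg/kg (adjusted p = 0.0456) and missed against the controls (adjusted p = 0.0504), and the call against 0.5 mg/kg was lost in all 10 fits that left out 1 library, up to 0.125. Efcab3 had 67 raw counts against 1 in the controls, a ratio of 71.6 with an interval of 12.4 to 2869.8. Its call against 0.5 mg/kg (adjusted p = 0.0456) was also lost in all 10 fits, up to 0.111. Cyp39a1, which hydroxylates oxysterols, was at 11.4 to 27.6 CPM in controls, 32 ± 29.2 CPM (SD, n = 5) at 0.5 mg/kg and 0.704 to 6.41 CPM at 5 mg/kg. Its step from 0.5 mg/kg was -3.47 ± 0.74 (adjusted p = 0.0335, lost in 5 of those 10 fits, up to 0.112), and the change against the controls did not pass (adjusted p = 0.0776).

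**Figure D5:**
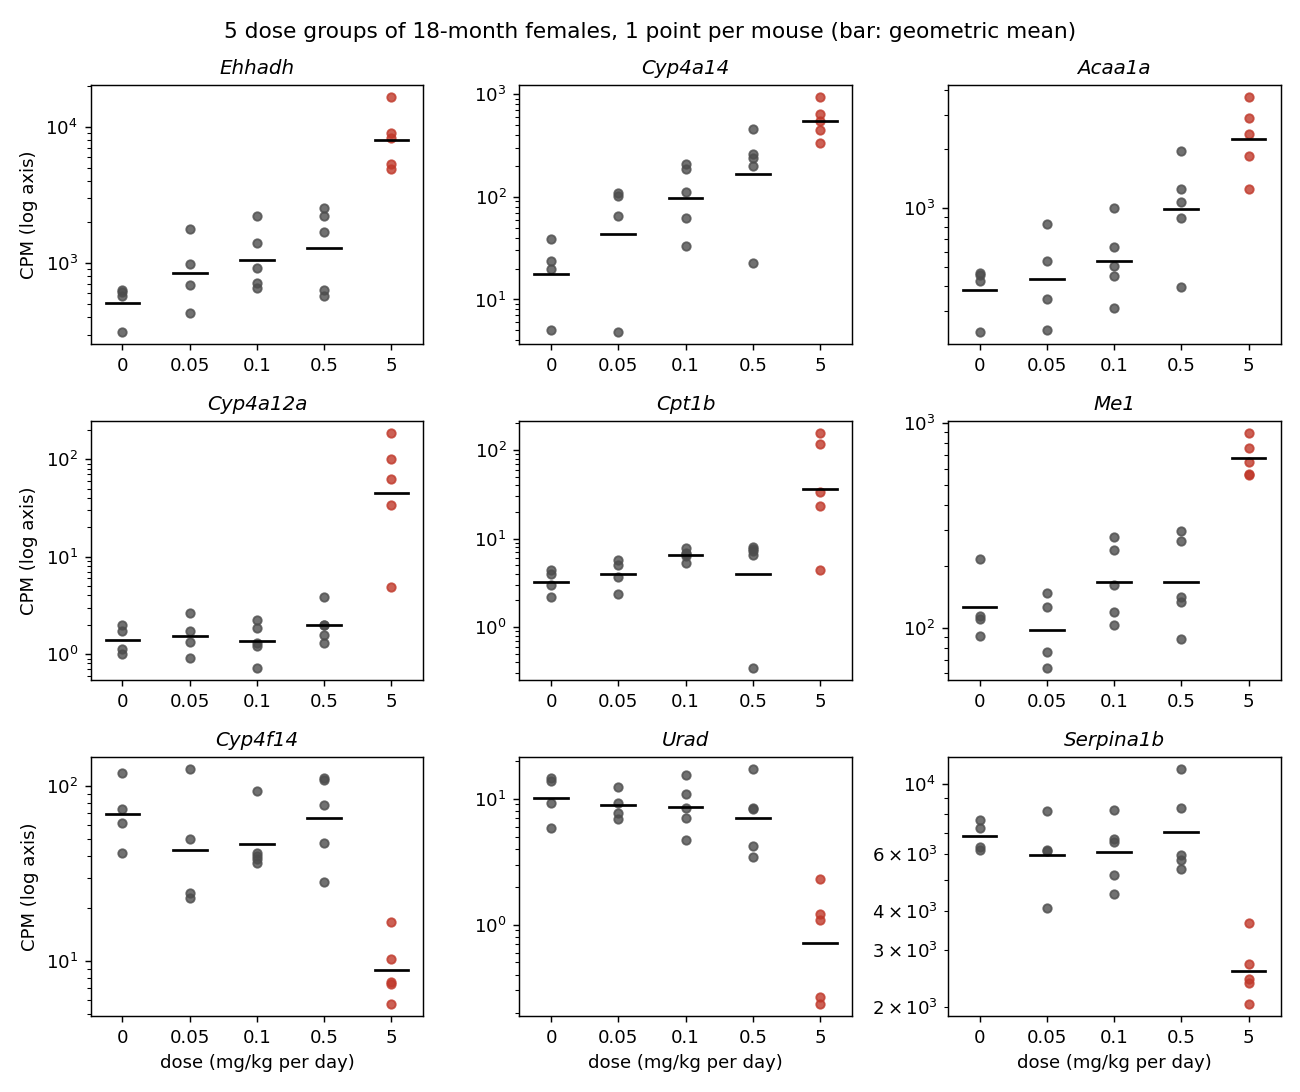
CPM on a log axis of 9 genes in the 5 dose groups of 18-month females, 1 point per mouse, with the 5 mg/kg mice in red and the geometric mean as a bar. Cyp4a14 climbs over the dose groups, with arithmetic means of 22, 70.2, 120.5, 236 and 581 CPM, while Cyp4a12a has means of 1.46 to 2.13 CPM up to 0.5 mg/kg and 77.7 CPM at 5 mg/kg.

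Whether the response changed with duration was tested as the difference between the 5 mg/kg effects in females after 18 and after 9 months, in a fit of 91 libraries whose scaling gives slightly other CPM values. The 9-month groups held 5 treated and 5 control mice. Of 13631 genes 2 were called, 0.0147%, with 1 in each direction (0.00734%) and 992 at an unadjusted p under 0.05. Gabpb2, a subunit of the transcription factor GABP, was at 56.3 CPM on average in treated and 26.1 CPM in control females after 18 months, and at 33.6 and 74 CPM after 9 months. Its change was 1.11 ± 0.24 after 18 months and -1.14 ± 0.22 after 9 months, a difference of 2.25 ± 0.32 (adjusted p = 1.22e-05). Within 18 months it was at 19.8, 22.2, 26.5 and 20.1 CPM in controls and at 45.2, 54.3, 49.7, 50.7 and 44.6 CPM in treated mice, with no overlap. In the 18-month females at 0.5 mg/kg Gabpb2 was at 18.9, 58.9, 57.3, 63.2 and 65.7 CPM in replicates 1 to 5. Replicates 2 to 5 of that group thus lay above every control, and replicate 1 did not.

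Drosha, the nuclease that cuts primary microRNA transcripts, was at 3.49 and 12 CPM in treated and control females after 18 months and at 17.5 and 8.28 CPM after 9 months, a difference of the effects of -2.87 ± 0.53 (adjusted p = 0.00444). Both differences held without each of the 19 libraries in turn. In the 18-month females alone Drosha did not pass (-1.76 ± 0.56, adjusted p = 0.127, and -2.89 at adjusted p = 0.00337 without treated replicate 5). Treated replicate 5, at 9.66 CPM, lay among the controls at 7.64 to 13.3 CPM, while the other treated mice were at 1.16 to 1.83 CPM. At 0.5 mg/kg for 18 months Drosha was at 11.9, 1.97, 2.51, 4.44 and 2.48 CPM in replicates 1 to 5. It was low there in the same animals in which Gabpb2 was high, and the source of this joint shift was not tested. Duration cannot be told apart from age or from sequencing depth, which was lower at 9 months. For the main oxidation genes the difference was not called, with an SE larger than the estimate: 0.12 ± 0.55 for Ehhadh and 0.4 ± 0.95 for Cyp4a14.

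The same test between the sexes at 18 months set these females against 3 treated and 5 control males. It called 148 of 13631 genes, 1.09%, with 26 differences positive (0.191%) and 122 negative (0.895%), where a negative value is a lower or more negative effect in females. This count rested heavily on male replicate 2 of the 5 mg/kg group: without it 15 genes were called, and 9 calls held without each of the 17 libraries in turn. Without control male replicate 5 the test called 238 genes, and without male replicate 1 of the 5 mg/kg group 352. Control male replicate 5 stood apart from the other control males for Apoa4 (14259.7 against 187 to 649.6 CPM) and Afp (343 against 1.49 to 12.8 CPM), among others. Cyp4a12a averaged 90 and 1.72 CPM in treated and control females and 272 and 298 CPM in the males, a difference of 5.86 ± 1.04 (adjusted p = 5.09e-04). Control males, 1 of them at 9.03 CPM excepted, were at 307 to 489 CPM, above every treated female (5.53 to 219 CPM). The difference of the effects held without each library. Cyp3a44 averaged 8.25 and 106 CPM in the females and 2.06 and 0.587 CPM in the males (-5.6 ± 1.03, adjusted p = 6.16e-04, and 0.0873 without male replicate 3 of the 5 mg/kg group).

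Cd36 and Acot2 were among the fatty acid genes that changed less in females than in males. Cd36 averaged 277 and 89 CPM in treated and control females against 326 and 17.2 CPM in males, a difference of -2.61 ± 0.62 (adjusted p = 0.0155, and 0.122 without male replicate 2 of the 5 mg/kg group). Acot2 averaged 56.1 and 5.81 CPM against 234 and 3.26 CPM, a difference of -2.9 ± 0.69 (adjusted p = 0.0156, and 0.0535 without male replicate 3 of that group). Its relative Acot3, singled out after its values were seen, had a difference of -4.87 ± 1.07 (adjusted p = 0.0065). The Acot3 difference held without each of the 17 libraries. For Cd36 the treated levels lay close together in the sexes and the control levels apart. Ehhadh, at 10144 and 626 CPM in females and 18356 and 403 CPM in males, was not shown to differ (-1.49 ± 0.58, adjusted p = 0.256).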

How the data were processed

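Liver RNA of 92 mice was measured with TempO-Seq. The authors deposited whole-number counts for 30146 probes in 1 table, 1 column per library; per the submitters' processing notes bcl2fastq 2.17.1.14 and Bowtie (version not given) were used, and the genome build and the probe manifest are not given in the sources used here. Each library is a separate mouse, per the labels. Probe counts were summed to 21400 gene symbols (the probe name without its number), 6309 of which had more than 1 probe. The groups were taken from the labels, and all 92 columns were matched to a sample. The sum over probes mixes transcripts that a probe can share, and fixed tissue gives fragmented RNA, which both bear on low and near-identical genes.

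Counts of the 23 females of 18 months (5 doses, low-total control left out) were fitted with edgeR 4.0.16 in R 4.3.3: TMM scaling, filterByExpr by group (12370 genes kept), robust quasi-likelihood fits, and Benjamini-Hochberg adjustment over all genes tested, with calls at an adjusted p under 0.05. The common biological coefficient of variation was 0.489. SE is the log2 change divided by the root of its F statistic. The differences between durations and sexes are interaction terms of a fit of 91 libraries (13631 genes). Ratios of low raw counts have exact 95% intervals. The alternatives were DESeq2 1.42.0, other normalization, no low-count filter, unsummed probes, other sets of libraries, other thresholds, and leaving out each library.

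The members, the 39 gene lists (806 genes, 20 without a probe) and the tests were chosen with earlier results of these data known. Named genes were the 15 largest rises and 15 largest falls among calls whose mean raw count was 10 or more, up to 6 called members of each list, the 4 largest differences in each direction of the other comparisons, and 36 standard genes of fatty acid metabolism and liver. Casc4, the uncalled list members that the text names outside this rule, and the genes of the closing observations were chosen after their values were seen. Results of some genes under the rule are not reported here, and the counts over lists include them. Promoters come from RefSeq (GRCm38.p6); 9617 of 12370 tested symbols matched.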

Additional observations from a re-analysis of the deposited data

Results flagged for a closer look

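In 200 combinations of a named gene and a group, 20 had a highest or lowest mouse far from the others on the log2(CPM + 1) scale by Dixon's test. Chance gives this in about 1 in 20 where values are normally distributed. That rate does not hold where all other mice of a group are at 0, since any mouse with counts is then flagged. In the controls the lowest mouse was far from the rest for Cd36 (40.3 CPM in replicate 5), Scd2 (5.97 CPM) and Rtn4 (11 CPM), both in replicate 1. Control replicate 4 was low for 3 oxidation genes, Ehhadh (311 CPM), Acaa1a (233 CPM) and Decr1 (220.0 CPM), and for Gm10681 (1.29 CPM). It was high for Fabp4 (57.8 CPM, the others 14.4 to 17.5) and for Serpina3c (5.38 CPM, the others 0). Without this mouse Ehhadh, Acaa1a and Decr1 kept their calls.

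Genes close to 0 in the controls gave further flags that rest on 1 or 2 raw counts: Krt20 (0.0992 CPM), Mogat1 (0.198 CPM), Gabrg1 (0.157 CPM), Cidea (0.0786 CPM), Ucp3 (0.152 CPM) and Efcab3 (0.0758 CPM). In treated mice Ucp3 was lowest in replicate 1 (0.707 CPM, the others 2.98 to 3.94), and Lrtm1 had its only counts there (0.177 CPM). Treated replicate 5 was lowest for F7 (43.4 CPM) and highest for Slc3a1 (5.82 CPM) and Drosha (9.66 CPM, the others 1.16 to 1.83).

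The 5 mg/kg effect differed between 18 and 9 months in females for Gabpb2 (2.25) and Drosha (-2.87). Between females and males at 18 months it differed for Cyp4a12a (5.86), Cyp3a44 (-5.6), Acot2 (-2.9), Cd36 (-2.61) and Sult3a1 (-4.18, called at adjusted p = 0.031, and lost in 11 of 17 fits that left out 1 library, up to 0.254). Gm10681 differed by 6.66 (adjusted p = 6.16e-04, held without each library): its mean was 409.6 CPM in control males, 3.27 CPM in treated males, and 2.65 and 2.07 CPM in control and treated females.

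Other differences between the sexes rested on male replicate 2 of the 5 mg/kg group. Without it Saa1 went from -11.64 to -4.18 (adjusted p = 0.654), Saa2 from -11.97 to -4.18 (adjusted p = 0.758), Ighv1-42 from -12.34 to -5.53 (adjusted p = 0.751) and Serpina3c from -9.87 to -3.54 (adjusted p = 1). Pdk4 went from -4.68 to -3.23 (adjusted p = 0.677) and Nkd1 from -2.54 to -1.59 (adjusted p = 0.713), and both also lost the call without some other libraries. The differences of Lama3 (4.15), Tstd1 (3.73) and Drosha (-2.2) lost their calls in 3, 5 and 6 of the 17 fits, with adjusted p up to 0.222, 0.268 and 0.268.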

How the results depend on the processing

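The 158 calls between 5 and 0 mg/kg became 47 at an adjusted p under 0.01, 435 with DESeq2, 263 with the low-total control kept in, 31 without both control replicates 2 and 4, and 66 to 247 with 1 library left out. DESeq2 kept 156 of the 158. At 0.5 mg/kg the 0 calls became 4 with DESeq2, 3 with all samples in the fit, and 0 to 1 with 1 library left out. Between 5 and 0.5 mg/kg the 89 calls became 15 at an adjusted p under 0.01, 325 with DESeq2, 55 with only the groups compared in the fit, and 18 to 86 with 1 library left out. The 2 differences between durations became 16 with DESeq2, 37 with the low-total control kept in, 1 with only the groups compared, and 2 to 3 with 1 library left out. The 148 differences between sexes became 48 at an adjusted p under 0.01, 276 with DESeq2, 432 with the low-total control kept in, 5 with only the groups compared, and 15 to 352 with 1 library left out. The other alternatives (RLE scaling, no low-count filter, unsummed probes, a minimum fold) kept each count within 1.5 times. The cause of these shifts was not tested.

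Signs turned for few named genes. With the low-total control kept in, the changes were -0.01 for Afp, 0.01 for Cyp3a11, -1.59 for Cyp4a12b, -0.36 for Foxp2 and -4.24 for Mki67, of which Cyp4a12b and Foxp2 had been called. Without both control replicates 2 and 4, Afp was -0.08 and Cyp3a11 1.74, and Cyp3a11 was 0.92 without control replicate 2 alone. With 1 library left out, Cyp3a11 ranged from -0.51 to 0.92, Mki67 from -1.09 (without treated replicate 2) to 1.28, and Tstd1 from -0.04 to 0.4, with -0.02 without control replicate 5. Over all alternatives, values of called genes kept direction and call 1620 times, lost the call 732 times and reversed 2 times. No paired analysis was possible because the labels give no replicate numbers that the groups share. DESeq2 gave no adjusted p for Cidea and Ucp3, which were called, and these are left out of its comparison. Depth limits the genes with 0 to 3 raw counts in a group, whose ratios span wide intervals.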

Other observations

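Some called genes outside the lists, chosen here after their values were seen, belong to mitochondria, sphingolipids or plasma proteins. Kdsr, the reductase of the second step of sphingolipid synthesis, averaged 30.5 ± 7.68 CPM (SD, n = 5) in treated mice and 10.7 ± 3.28 CPM (n = 4) in controls, a change of 1.51 ± 0.32 (edgeR adjusted p = 0.0155, and up to 0.0705 with 1 library left out). Sptlc3, which acts in the first step, also rose. Mitochondrial proteins that are no fatty acid enzymes rose by small amounts: Timm9, an import chaperone, by 0.69 ± 0.15, Micos10 and Apool of the cristae junction by 0.79 ± 0.17 and 0.84 ± 0.19, and the protease subunit Afg3l2 by 0.66 ± 0.16 (adjusted p = 0.0155, 0.0145, 0.026 and 0.0378). All treated mice were above all controls in these 4 genes, and each lost its call without some single libraries, with adjusted p up to 0.159.

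Pltp, the phospholipid transfer protein, rose by 2.21 ± 0.43 (adjusted p = 0.00848), and Apom, the apolipoprotein that carries sphingosine 1-phosphate, fell by 1.5 ± 0.26 on the log2 scale (adjusted p = 0.00421), from 40.8 ± 1.8 CPM (SD, n = 4) to 14.4 ± 4.65 CPM (n = 5). Serpina1d fell by 1.59 ± 0.25 (adjusted p = 0.00184), beside Serpina1a, Serpina1b and Serpina1e. These 3 calls held without any 1 library. The complement genes C1s1, C1rb and Masp1 fell by 1.54 ± 0.39, 1.18 ± 0.29 and 1.05 ± 0.26 (adjusted p = 0.049, 0.0381 and 0.044), and each lost its call in 5 or more of the 9 fits that left out 1 library.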
